A study of Rattus norvegicus with 6 samples.

Results

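The genes described here build and organise the microtubules of neurons: tubulins, microtubule-associated proteins (MAPs), doublecortins, stathmins, collapsin response mediator proteins (CRMPs) and end-binding proteins. The 34 genes were taken by a list of symbols from a table of 17366 transcripts. The list was drawn up with earlier results of these data known. They comprise 5 alpha-tubulins, 7 beta-tubulins, 1 gamma-tubulin, 7 lattice-binding MAPs, 2 doublecortins, 4 stathmins, 5 CRMPs and 3 end-binding proteins. All of them were measured in bulk RNA from cultured rat retinal ganglion cells (RGCs), the neurons whose axons form the optic nerve. By mean FPKM, Stmn2 ranked 8, Stmn3 22, Tubb3 36 and Tubb5 64 among all transcripts of the table, while other members lay far lower, such as Tubb6 at 4432. Adding the secreted protein Chrdl1 for 12 h changed none of the 33 genes that could be tested past the threshold used here. Levels of 26 of the 33 (78.8%, against 47.4% of all tested genes) differed between the 3 codes carried by the library titles, with Tubb3 spanning 1.97-fold between code means.

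The cells came from Sprague Dawley rats labelled as postnatal day 5, and all cultures were kept for 10 days. In the Chrdl1 group, 3 libraries came from cells given Chrdl1 at 1 µg/ml for 12 h. In the vehicle group, 3 libraries came from cells given the buffer, labelled as 0.1% BSA with 4 mM HCl. Chrdl1 (chordin-like 1) is known as a secreted antagonist of bone morphogenetic proteins that astrocytes release in the brain. No genotype or transgene is named in the labels, which record the cell type as RGC and do not say how the cells were purified. The extraction protocol speaks of visual cortex, whereas the source and cell type fields and the design text name RGCs. Each library title carries a code, and each code occurs once in each group. The codes are called pair A, pair B and pair C here, in ascending order. Nothing in the labels says what the codes stand for, or whether libraries came from separate cultures. The p-values therefore describe library-to-library spread only, which may be technical.

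Microtubules are polymers of alpha- and beta-tubulin dimers that grow and shrink at their ends, and gamma-tubulin nucleates new ones. In axons and dendrites MAPs bind along the lattice and stabilise it, end-binding proteins ride on growing tips, stathmins sequester free dimers, and CRMPs carry dimers and link guidance signals to the cytoskeleton. RGCs need this machinery to grow and maintain the long axons of the optic nerve, and several of these genes serve as general markers of neurons.

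The sequences upstream of 4 members are shown because 3 of them (Tubb3, Tuba1a and Tubb2b) had the smallest adjusted p-values between title codes among members with an entry in the promoter table, and moved together, whereas Mapre3 had the largest. Each is the 250 bases before the RefSeq start of the gene on the assembly GRCr8, written 5′ to 3′ on the gene's strand. Capitals mark a GC box (GGGCGG, or CCGCCC on the other strand) or a CCAAT box (CCAAT, or ATTGG on the other strand). Tubb3 lies at chr19:68365437-68365686 on the plus strand, Tuba1a at chr7:131995820-131996069 on the minus strand, Tubb2b at chr17:30952836-30953085 on the plus strand and Mapre3 at chr6:31244904-31245153 on the minus strand.
Tubb3: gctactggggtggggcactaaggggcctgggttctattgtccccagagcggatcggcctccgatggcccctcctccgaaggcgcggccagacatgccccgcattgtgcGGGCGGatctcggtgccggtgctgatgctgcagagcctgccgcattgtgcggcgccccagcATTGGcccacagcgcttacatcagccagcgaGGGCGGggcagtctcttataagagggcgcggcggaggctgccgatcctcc
Tuba1a: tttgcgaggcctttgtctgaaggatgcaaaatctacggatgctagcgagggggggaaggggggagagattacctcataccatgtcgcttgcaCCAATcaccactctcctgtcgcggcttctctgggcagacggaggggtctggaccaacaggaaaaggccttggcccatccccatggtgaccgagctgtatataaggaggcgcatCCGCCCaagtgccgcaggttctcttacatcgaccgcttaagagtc
Tubb2b: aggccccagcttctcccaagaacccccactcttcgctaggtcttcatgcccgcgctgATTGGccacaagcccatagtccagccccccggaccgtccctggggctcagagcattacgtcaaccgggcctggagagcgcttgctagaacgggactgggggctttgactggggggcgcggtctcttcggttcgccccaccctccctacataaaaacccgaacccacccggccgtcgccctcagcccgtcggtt
Mapre3: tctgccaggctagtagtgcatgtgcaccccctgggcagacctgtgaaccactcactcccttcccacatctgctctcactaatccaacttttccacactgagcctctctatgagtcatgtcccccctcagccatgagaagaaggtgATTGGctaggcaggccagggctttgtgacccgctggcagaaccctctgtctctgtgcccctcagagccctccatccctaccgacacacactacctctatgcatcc
All 4 windows held a CCAAT box, and the GC box was found in those of Tubb3 and Tuba1a but not in those of Tubb2b and Mapre3. Over the 28 members with an entry, 19 windows (67.9%) held a GC box against 32.4% of 27457 windows of the same length. A CCAAT box occurred in 14 of the 28 (50%), against 34.3% of all windows. The letters TATAAA, read on both strands, occurred in 5 of the 28 (17.9%), against 13.1% of all windows, namely those of Tubb2a, Tubb4b, Map1b, Dcx and Mapre1. The members' windows had a median GC content of 63.2%, against 52% over all windows and the motif shares were not compared at equal GC content. Map4, Map6, Mapt, Stmn2, Stmn4 and Dpysl2 had no entry. These matches describe letters in a window and no binding was measured.

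Values are FPKM, fragments scaled to transcript length and to the mapped reads of the library, as deposited. Levels of different genes can be set side by side only as far as the 1 listed length of each gene holds. Stepwise low values, each a whole number of reads, gave read totals of 14546600 (vehicle, pair B) to 26551800 (vehicle, pair C) for the 6 libraries. Of 13 RGC markers in the table, all but Atoh7 were detected, and their summed FPKM was 2419 to 2693 with vehicle and 2254 to 2693 with Chrdl1. Sncg (819 to 1105) and Nefl (524 to 632) made up most of that sum, which hides differences between codes. In both groups Rbpms, Pou4f2, Isl1, Slc17a6, Ebf1 and Ebf3 were highest in pair B, and Sncg and Nefm in pair A. Thy1 was lowest in pair B (153 with vehicle, 133 with Chrdl1) and highest in pair C. Markers of microglia and macrophages summed to 28.5 and 15.3 in the libraries of pair B and to 212 to 318 in the other 4. Stromal, mural and endothelial markers likewise summed to 39.4 and 26.6 in pair B and to 203 to 337 elsewhere. Photoreceptor markers summed to 51.5 and 52.4 in pair C and to at most 6.25 elsewhere. Markers of astrocytes and Müller glia summed to 76.0, 63.9 and 101 with vehicle in pairs A, B and C, and to 73.5, 54.9 and 99.6 with Chrdl1. Most of that sum was Glul (51.5 to 82.5), with Slc1a2 at most 9.10, Slc1a3 at most 5.95 and Gja1 at most 4.82, while Gfap was at most 1.24 and Aqp4 at most 0.017. In bulk RNA, fewer cells of a type and less RNA per cell cannot be told apart.

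Alpha-tubulins supply the subunit that carries the acetylation and tyrosination marks of stable and dynamic microtubules. Tuba1a, the main alpha-tubulin of young neurons, was the most abundant. Its FPKM was 153, 88.8 and 113 with vehicle in pairs A, B and C, and 161, 88.5 and 104 with Chrdl1. Both libraries of pair A stood above the other 4, and the groups overlapped. The fold change on the log2(FPKM + 1) scale used throughout was -0.02 ± 0.27 (SE), with an adjusted p of 0.9998 in limma. This SE and those of other genes below are from a fit without the title code, so they include the spread between codes. With the code as a block in the fit, the SE of Tuba1a was 0.06 and the adjusted p 0.980 in limma. Tuba4a, an isotype encoded without the terminal tyrosine, followed at 48.7 to 75.2, above Tuba1b at 42.3 to 67.3 in every library although their ranges overlapped. Tuba8 was the lowest of those tested, at 1.10, 1.52 and 1.59 with vehicle and 1.42, 1.45 and 0.859 with Chrdl1, from 30 to 61 reads per library.

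Tuba1c was listed at 0 in all 6 libraries and was the only member that failed the filter of at least 1 FPKM in at least 3 libraries. Its entry in the table lies on chromosome 2 (199196137 to 199203740, rn6) and is the only one of the 34 that the table marks with more than 1 genomic copy. Of the 558 such transcripts in the table, 424 (76%) were listed at 0 in every library, against 16.5% of the 16808 transcripts with 1 copy. RefSeq places Tuba1c on chromosome 7 of GRCr8, where Tuba1a and Tuba1b also lie. No level is therefore given for Tuba1c. Tuba1a and Tuba1b encode nearly the same protein, as do Tubb2a and Tubb2b. How reads that match several genes were counted is not given in the sources used here, so the split between such copies is uncertain.

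Beta-tubulins bind the exchangeable GTP that drives growth and shrinkage. Tubb3, the neuronal isotype widely used as a marker of neurons, was the most abundant of the family. With vehicle it was at 606, 307 and 393 in pairs A, B and C, and with Chrdl1 at 619, 314 and 330. Pair A lay far above the others in both groups, and the treated and vehicle libraries overlapped (log2 fold change -0.06 ± 0.34, adjusted p = 0.9998, limma). With the code as a block the SE of Tubb3 was 0.08 (adjusted p = 0.924, limma). Tubb5, the isotype found in most cell types, was next, at 397, 287 and 341 with vehicle and 390, 265 and 296 with Chrdl1. Tubb2b, an isotype of developing neurons, was at 195, 123 and 137 with vehicle and 198, 122 and 125 with Chrdl1. By FPKM the order Tubb3, Tubb5, Tubb2b, Tubb4a, Tubb4b, Tubb2a, Tubb6 held in each of the 6 libraries. In reads not scaled to length, Tubb5 exceeded Tubb3 in pairs B and C of both groups. With vehicle in pair B, for example, Tubb5 held 34.9% and Tubb3 29.6% of beta-tubulin reads. The ranges of Tubb3 and Tubb5, and those of Tubb2b and Tubb4a, still overlapped between libraries. Tubb4a, an isotype of brain, ranged from 107 to 145, Tubb4b, the broadly expressed form, from 68.2 to 99.1, and Tubb2a from 46.9 to 67.2. Tubb6 closed the order at 17.3, 14.0 and 19.2 with vehicle and 16.5, 13.0 and 16.7 with Chrdl1.

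The ratio of summed alpha- over summed beta-tubulin FPKM lay between 0.191 and 0.215 in the 6 libraries. It was highest in pair C (0.213 with vehicle and 0.215 with Chrdl1), against 0.191 to 0.200 in pairs A and B. The alpha sum and the shares of it count Tuba1c as 0, and carry the uncertain split between similar copies. Summed FPKM itself ranged from 181 to 305 for alpha and from 940 to 1528 for beta. Tuba1a made up 48.6% ± 3.57 (SD, n = 3) of alpha-tubulin FPKM with vehicle and 49.9% ± 2.59 (SD, n = 3) with Chrdl1. Tubb3 made up 35.2% ± 4.16 (SD, n = 3) of beta-tubulin FPKM with vehicle and 35.5% ± 4.35 (SD, n = 3) with Chrdl1. Both differences between group means were smaller than the SD between libraries of a group, which includes the spread between codes. Within pairs, the Tuba1a share was higher with Chrdl1 by 0.225, 1.21 and 2.27 percentage points in pairs A, B and C, and the Tuba4a differences were -0.979, -0.831 and -2.40 points. The shares of Tubb2a (0.108, 0.27 and 0.482 points) and Tubb2b (0.0944, 0.142 and 0.671 points) were also above vehicle in each pair. The shares of Tuba1b, Tuba8, Tubb3, Tubb4a, Tubb4b, Tubb5 and Tubb6 changed direction between pairs. Shares within a family move against each other, and none was tested. For vehicle and Chrdl1, the Tubb3 share was 39.9% and 40.5% (pair A), 32.0% and 33.4% (pair B), and 33.7% and 32.6% (pair C). Tubg1, the gamma-tubulin of nucleation sites, was at 18.4, 19.9 and 23.3 with vehicle and 18.3, 16.5 and 20.7 with Chrdl1, lower with Chrdl1 in each pair with overlapping groups (-0.14 ± 0.13, adjusted p = 0.9998, limma).

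**Figure D1:**
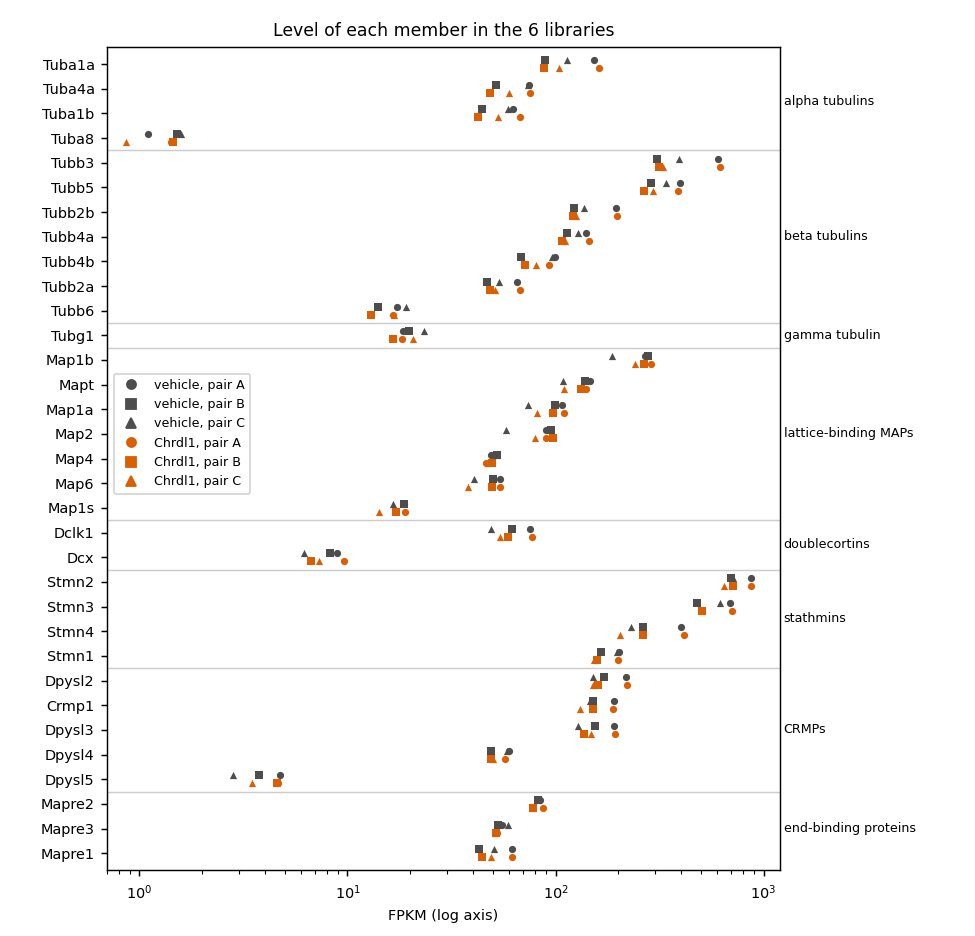
FPKM of the 33 detected members on a log axis, grouped by family, with 1 point for each of the 6 libraries coloured by treatment and shaped by title code. Stmn2 is highest with 646 to 873 and Tuba8 lowest with 0.859 to 1.59, and for Tuba1a and Tubb3 the points of pair A lie apart from the other 4 in both groups. In pair C vehicle and Chrdl1 differ visibly for Tuba8 (1.59 and 0.859) and Map2 (57.6 and 80.1).

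The lattice-binding MAPs stabilise and space microtubules. Map1b, the MAP of growing axons, was the most abundant at 270, 278 and 187 with vehicle and 288, 267 and 241 with Chrdl1. Vehicle in pair C was the lowest of the 6, and the groups overlapped (0.13 ± 0.18, adjusted p = 0.9998, limma). Mapt, which encodes the axonal protein tau, ranged from 108 to 147, and Map1a, the MAP of mature neurons, from 73.9 to 110. Map2, the dendritic MAP, was at 90.3, 94.8 and 57.6 with vehicle and 90.1, 96.9 and 80.1 with Chrdl1. It too was lowest in the vehicle library of pair C, and its fold change of 0.16 ± 0.20 was the largest positive one among the members (adjusted p = 0.9998, limma). Map4, found in most cell types, at 46.2 to 52.4, and Map6, which protects microtubules from cold, at 38.1 to 54.1, changed order between libraries. Map1s was the lowest of the family at 18.7, 18.8 and 16.6 with vehicle and 18.8, 17.2 and 14.2 with Chrdl1.

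Doublecortins bind between protofilaments and are known from migrating and young neurons. Dclk1, a doublecortin with a kinase domain, was at 75.0, 62 and 48.7 with vehicle and 77.3, 59.2 and 54.3 with Chrdl1. Dcx itself was at 8.90, 8.23 and 6.18 with vehicle and 9.66, 6.70 and 7.26 with Chrdl1. Dclk1 was above Dcx in every library without overlap of their ranges, and for both genes the groups overlapped.

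Stathmins bind free tubulin dimers. Stmn2, known from growing axons, was at 869, 701 and 716 with vehicle and 873, 714 and 646 with Chrdl1, a fold change of -0.04 ± 0.18 (adjusted p = 0.9998, limma). Stmn3 ranged from 480 to 709 and Stmn4 from 205 to 412, both brain-enriched members of the family. Stmn4 was at 402, 263 and 231 with vehicle and 412, 265 and 205 with Chrdl1, so that its values followed the title code in both groups. Stmn1, the member found outside neurons as well, was at 202, 166 and 199 with vehicle and 200, 159 and 154 with Chrdl1. Its fold change of -0.15 ± 0.14 was the most negative among the members, with a log2 difference of -0.37 in pair C and of -0.015 in pair A. The share of Stmn1 differed from vehicle by -0.224, -0.611 and -1.1 points in pairs A, B and C. Those of Stmn2, Stmn3 and Stmn4 changed direction between pairs. Stmn2 contributed 41.5% ± 1.84 (SD, n = 3) of stathmin FPKM with vehicle and 42.0% ± 1.96 (SD, n = 3) with Chrdl1.

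CRMPs are cytosolic phosphoproteins that act in growth cone steering. Dpysl2 (CRMP2), which carries tubulin dimers to growing ends, was at 218, 170 and 152 with vehicle and 221, 160 and 152 with Chrdl1. Its share of CRMP FPKM was 32.0% ± 0.829 (SD, n = 3) and 32.1% ± 0.926 (SD, n = 3). Of CRMP reads, not scaled to length, Dpysl2 held 46.3% with vehicle and 46.5% with Chrdl1. Crmp1, at 131 to 191, and Dpysl3, at 128 to 194, each exceeded the other in 3 of 6 libraries. Dpysl4 was at 49.0 to 60.1, and Dpysl5 was the lowest at 4.74, 3.77 and 2.81 with vehicle and 4.62, 4.58 and 3.49 with Chrdl1. No CRMP separated the groups, and no CRMP share kept the same direction in all pairs.

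Among the end-binding proteins, which recruit other proteins to growing tips, Mapre2 (EB2) was the most abundant at 84.3, 82.3 and 81.0 with vehicle and 87.1, 77.8 and 76.9 with Chrdl1. Mapre3 (EB3), the neuron-enriched form, was at 55.1, 53.0 and 59.1 with vehicle and 52.6, 51.6 and 51.9 with Chrdl1. Every vehicle value of Mapre3 exceeded every Chrdl1 value. Mapre1 (EB1), the general form, was at 62, 42.7 and 50.3 with vehicle and 62.1, 44.4 and 49.0 with Chrdl1, so that libraries of the same code nearly coincided.

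**Figure D2:**
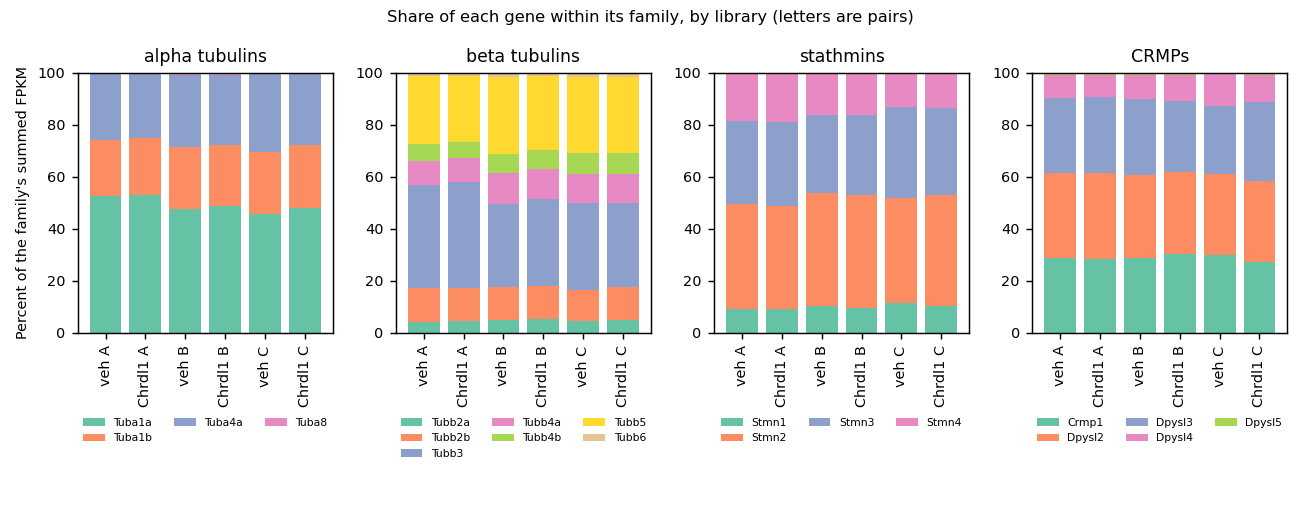
Percent of summed FPKM held by each gene within alpha-tubulins, beta-tubulins, stathmins and CRMPs, in stacked bars for each of the 6 libraries. Tuba1a takes 45.6% to 52.8% of alpha-tubulin FPKM, and Tubb3 takes 39.9% and 40.5% of beta-tubulin FPKM in pair A against 32.0% to 33.7% elsewhere.

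The comparison of Chrdl1 with vehicle asked which transcripts respond to the protein in RGCs. limma called 0 of the 33 tested members at an adjusted p under 0.05, and 0% of the 10390 genes tested. At an unadjusted p under 0.05 there were 18 genes, 0 of them members. The spread between codes enters the error of this fit, so its high adjusted p-values do not show that a change was absent. With the title code as a block, limma again called 0 genes, and 535 genes (5.15%) had an unadjusted p under 0.05, 0 of them members. The smallest unadjusted p of a member in that fit was 0.0741 for Stmn1, followed by 0.0761 for Map2 and 0.0828 for Tubg1. limma's voom on the recovered reads called 0 genes without the block, and with it 2 genes that are not members. In voom with the block, 630 of the 10390 genes had an unadjusted p under 0.05. Of the 33 members, 4 did (Tubb5, Map1b, Map2 and Stmn1). The fold changes of the members lay between -0.15 and 0.16, and their blocked 95% intervals all lay between -0.43 and 0.38. The median reach of an interval on either side of the estimate was 0.42 without and 0.15 with the block.

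By sign, 9 of the 33 members had a positive fold change (27.3%), against 38.4% of all tested genes, and their median of -0.04 lay beside -0.03 over all genes. After quantile normalization 19 members had a positive sign (57.6%, against 50.3% of all genes) and the median became 0.0098, so the sign count rests on the scaling. Within pairs, 0 members were higher with Chrdl1 in all 3 pairs, against 7.55% of all genes. Lower in all 3 pairs were 7 members (21.2%), against 19.5% of all genes: Tubb5, Tubb6, Tubg1, Map4, Map6, Stmn1 and Mapre3. The FPKM values of the groups did not overlap for 1 member, Mapre3 (3.03%), against 2.44% of all genes, with a fold change of -0.10 ± 0.08. Both of these shares were near the background.

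**Figure D3:**
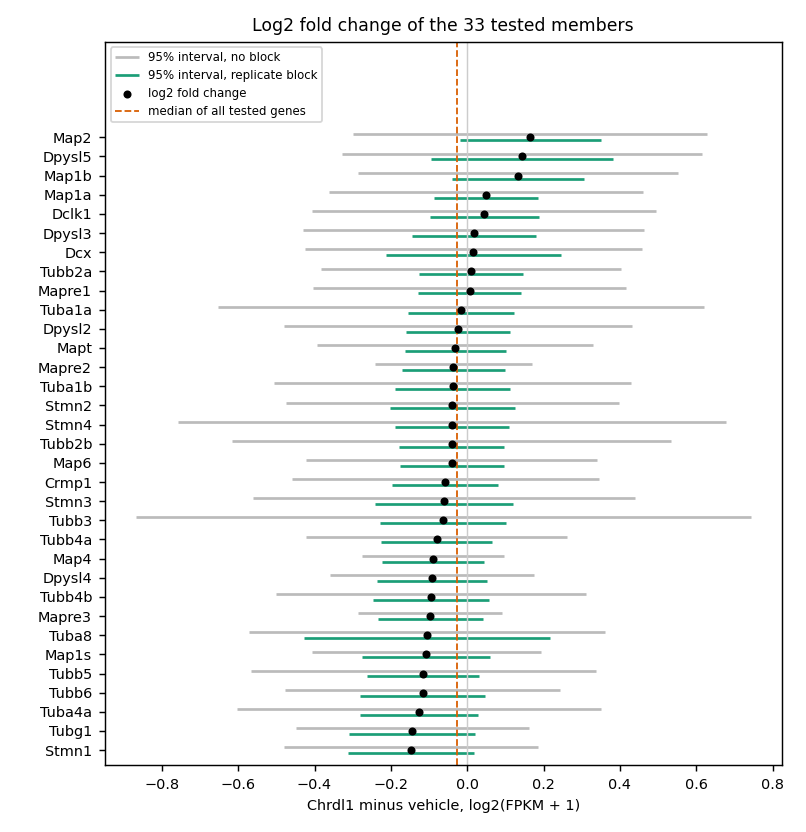
Log2 fold change of Chrdl1 against vehicle for each of the 33 tested members, with the 95% limma intervals without and with the title code as a block. All estimates lie between -0.15 and 0.16, and every interval of either fit includes 0.

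The 3 pairs did not contribute alike. The median of the members' log2 differences was 0.01, -0.04 and -0.15 for pairs A, B and C. In pair C all 11 tested alpha- and beta-tubulins, Tubg1, all 4 stathmins and all 3 end-binding proteins were lower with Chrdl1, from -0.04 for Mapre1 to -0.48 for Tuba8. In all, 24 of the 33 members (72.7%) were negative in this pair, against 60.6% of all tested genes. Of the 9 positive members, Map2 was at 0.47, Map1b at 0.36, Dpysl5 at 0.24, Dpysl3 and Dcx at 0.20 each, Dclk1 at 0.16 and Map1a at 0.14, with Mapt at 0.02 and Dpysl2 at 0.001. The direction ran with transcript length for most members. Exceptions were Dpysl3, positive with a listed length of 1776 bases, and Map4, negative (-0.12) with 5485 bases. Of the 9 members of at least 4000 bases, 8 were positive in pair C, with a median of 0.16, while the 16 members of 1000 to under 2000 bases had a median of -0.18. Over all tested genes the medians in pair C were -0.19 below 1000 bases, -0.12 from 1000 to under 2000, -0.04 from 2000 to under 4000 and 0.09 from 4000 bases on. The rank correlation of the pair C difference with length was 0.718 over the 33 members and 0.39 over all genes. In pair A it was -0.08 and 0.03, and in pair B -0.18 and 0.03. These correlations are across genes measured in the same libraries and carry no p. When the trend of each library on length was removed, the fold change of Map1b became 0.03 instead of 0.13 and that of Map2 0.13 instead of 0.16. With that trend removed, 12 members had a positive sign (36.4%, against 48.3% of all genes).

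**Figure D4:**
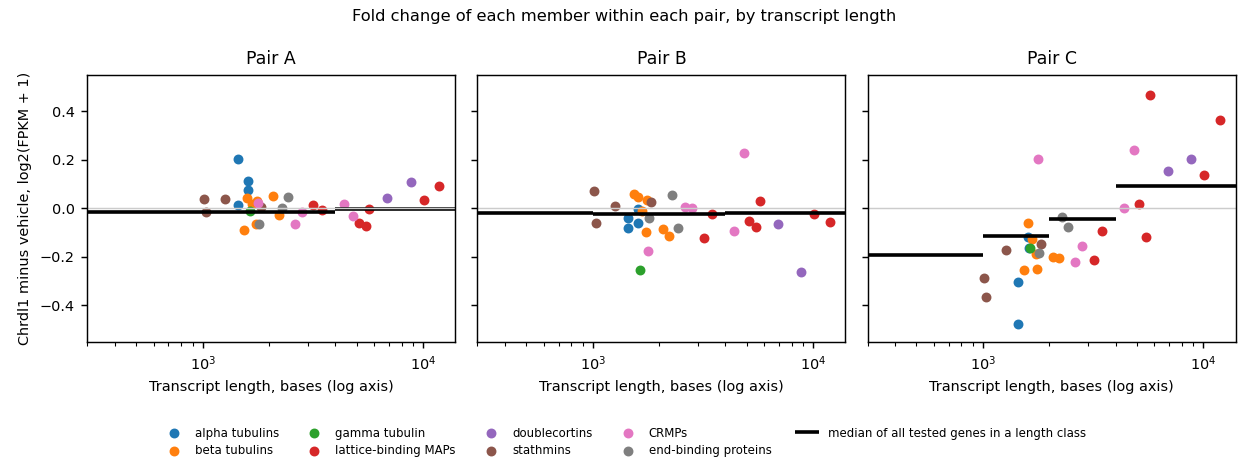
Log2 difference of Chrdl1 minus vehicle in each pair against transcript length in bases (log axis) for the 33 tested members, beside the medians of all tested genes by length class. In pair C short members such as Tubb3 lie below 0 and long ones such as Map2 (0.47) and Map1b (0.36) above it, and the class medians of pairs A and B stay between -0.03 and -0.0036.

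The larger differences were those between title codes, which are shared by 1 library of each group. An F test of the code in limma, beside treatment, called 26 of the 33 members (78.8%) at an adjusted p under 0.05, against 47.4% of all tested genes. Libraries with the same code may share a culture, so this p measures the spread within a code and not that between cultures. Over all genes the code held 88.9% of the variance and treatment 3.91%. For the median member these shares were 87.2% and 2.10%, against medians of 80.2% and 3.95% over all genes.

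Tubb3 differed most, with mean FPKM of 612, 310 and 361 for pairs A, B and C (1.97-fold between highest and lowest on the FPKM + 1 scale, adjusted p = 9.06e-06, limma F test). Stmn4 spanned 1.87-fold, from 407 in pair A to 218 in pair C, Tuba1a 1.76-fold, from 157 in pair A to 88.7 in pair B, and Tubb2b 1.60-fold, from 196 in pair A to 122 in pair B. The smallest ranges were those of Mapre3 at 1.06-fold, Map4 at 1.07-fold and Mapre2 at 1.09-fold. These 3, with Tubg1, Map1s, Dpysl4 and Tuba8, were the 7 members not called between codes. Upstream windows of Tubb3 and Tuba1a, printed above, held a GC box, and the windows of Tubb2b and Mapre3 did not, so the letter matches did not separate these genes by their range.

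Pair A was the highest for 27 of the 33 members (81.8%), whereas it was the highest for 25.4% of all tested genes. Pair B was lowest for 33.8% and pair C for 27.6% of all tested genes, and each was lowest for 16 members. Pair B was lowest for 10 of the 11 tested alpha- and beta-tubulins, the exception being Tuba8, and for Tubg1. Pair C was lowest for 6 of 7 lattice-binding MAPs, for both doublecortins and for 4 of 5 CRMPs. Stathmins were split, with Stmn1 and Stmn3 lowest in pair B and Stmn2 and Stmn4 in pair C, and so were the end-binding proteins, with Mapre1 and Mapre3 lowest in pair B and Mapre2 in pair C. Differences between families were not tested. From pair A to pair B, Tubb3 differed by -0.98 and Tuba1a by -0.82 on the log2 scale, while Map2 differed by 0.09 and Map1a by -0.14. From pair A to pair C, Map2 differed by -0.40 and Map1a by -0.49, and Tubb3 by -0.76. Over all genes the medians of these differences were 0.03 and 0.07.

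Length ran along with part of this pattern. The rank correlation of the pair C minus pair B difference with transcript length was -0.655 over the 33 members and -0.231 over all 10390 genes, and that of pair B minus pair A was 0.507 and 0.183. With the length trend of each library removed, the F test called 28 members (84.8%) instead of 26, and 4992 of all 10390 genes (48.0%) instead of 4930. The marker lists of other cell types also moved with the codes. Microglial and stromal sums were lowest in pair B, where the tubulins were lowest. Photoreceptor sums were highest in pair C, where most MAPs were lowest. Sums of astrocyte and Müller glia markers were lowest in pair B and highest in pair C. The part of these other cells, and of length, in the code differences of the members was not tested.

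**Figure D5:**
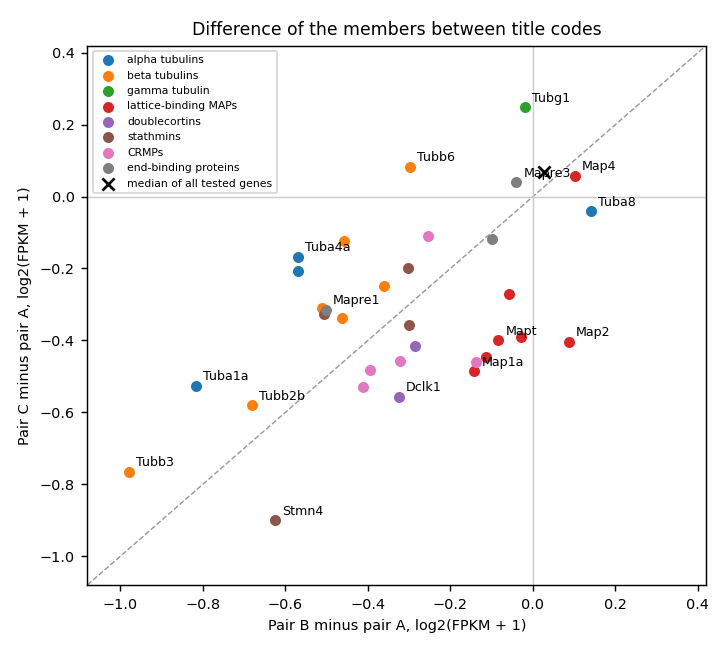
Log2 difference of pair B from pair A (x axis) against that of pair C from pair A (y axis), 1 point for each of the 33 tested members coloured by family, with a cross for the median of all tested genes and a dashed line of equal differences. Tubb3 (-0.98 and -0.76) and Tuba1a (-0.82 and -0.53) lie furthest to the left, and Stmn4 (-0.62 and -0.90) and Map2 (0.09 and -0.40) lie below the line.

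Genes that act on microtubules were taken as 7 further lists with 145 symbols, of which 106 were tested. limma called 0 of the 106 with or without the block. At an unadjusted p under 0.05 there was 1 gene without the block and 6 with it, against 5.15% of all genes with it. By sign 45 of the 106 were positive and 61 negative, while 38.4% of all tested genes were positive. The counts for each list at an unadjusted p under 0.05 with the block were 2 of 19 tubulin folding cofactors, 2 of 21 tip-tracking proteins, 1 of 10 tubulin-modifying enzymes, 1 of 21 other lattice-binding MAPs, and 0 of 9 other tubulins and gamma-tubulin complex genes, 0 of 5 severing and depolymerizing enzymes and 0 of 21 kinases and partners.

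Tbca, a cofactor that holds folded beta-tubulin, was at 84.3, 82.5 and 87.5 with vehicle and 76.5, 73.8 and 71.0 with Chrdl1. Its groups did not overlap, as was so for 2.44% of all tested genes. The fold change of Tbca was -0.20 ± 0.08, and its adjusted p was 0.9998 without and 0.807 with the block in limma. Pfdn5, a subunit of the prefoldin chaperone, averaged 94.5 ± 6.0 (SD, n = 3) with vehicle and 85.1 ± 1.30 (SD, n = 3) with Chrdl1. The listed transcripts of Tbca and Pfdn5 are short, at 529 and 637 bases. Of the 1087 tested genes under 1000 bases, 177 had an unadjusted p under 0.05 in limma with the block. Among those 1087 genes, 260 were lower with Chrdl1 in all 3 pairs. Atat1, the acetyltransferase of alpha-tubulin, averaged 15.8 ± 2.28 (SD, n = 3) and 13.6 ± 1.35 (SD, n = 3). Among the tip-tracking proteins Macf1, a giant linker of actin and microtubules with a listed transcript of 23421 bases, was at 18.3, 25.9 and 15.8 with vehicle and 19.9, 28.3 and 22.8 with Chrdl1. Its pair differences were 0.12, 0.12 and 0.50, so pair C held most of its fold change of 0.25 ± 0.20. Apc, a tip-bound regulator, averaged 38.1 ± 9.71 (SD, n = 3) and 42.6 ± 7.62 (SD, n = 3), also with its largest difference in pair C (0.39).

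The most abundant genes of each list were near the same level in both groups. Cct5 and Cct4, subunits of the ring chaperone that folds tubulin, averaged 158 and 151 with vehicle against 150 and 142 with Chrdl1. Dctn1 (a dynactin subunit) and Clasp2 (a rescue factor) averaged 129 and 115 against 123 and 116. Agtpbp1, which shortens the glutamate chains of tubulin, and Sirt2, a deacetylase, averaged 74.8 and 50.1 against 77.4 and 48.3. Pafah1b1 (Lis1) averaged 156 against 162, and Map1lc3a, an autophagy light chain that also binds MAP1 proteins, averaged 201 against 190. Gsk3a and Mapk10, kinases that phosphorylate MAPs, averaged 106 and 74.8 against 102 and 78.8. Kif2a (a depolymerizing kinesin) and Spast (spastin, which severs microtubules) averaged 28.3 and 18.0 against 28.4 and 18.1. Tubgcp3 and Tubgcp5, subunits of the nucleating ring complex, averaged 13.8 and 12.4 against 13.2 and 13.5.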

How the data were processed

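RNA libraries of RGC cultures (stranded mRNA kit, per the labels' protocols) were sequenced, 3 with Chrdl1 and 3 with vehicle. The authors deposited FPKM for 17366 transcripts, 1 per gene symbol, on rn6, per the file headers, so isoforms cannot be told apart. The submitters' processing notes name FastQC, STAR 2.4.0k and HOMER 4.8.3. How multiply matching reads and strand were handled is not given in the sources used here.

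Genes with at least 1 FPKM in at least 3 libraries (10390, with 33 of the 34 members) were tested on log2(FPKM + 1) with limma 3.58.1 in R 4.3.3 (empirical Bayes with trend, two-sided, Benjamini-Hochberg over all tested genes, called at adjusted p under 0.05). Such fold changes understate those of low genes. Low values were whole numbers of reads for 99.99% to 100% of values, within the rounding of the table (0.0005 FPKM), which gave read totals of 14546600 to 26551800, and voom was run on those reads as an alternative. Values of 1 read at 1 kb were 0.0377 to 0.0687 FPKM.

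The title codes pair the libraries: deviations from the group means correlated at 0.82, 0.86 and 0.84 within codes. The block on the code, other pseudocounts (0.1), filters (5 FPKM or no filter), quantile normalization, removal of each library's trend on length (lowess, span 0.5) and leaving out libraries were alternatives. The length-corrected test between codes was added after seeing the data.

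On simulated data with 10390 genes and 50 genes changed at each fold, the comparison of 3 against 3 recovered 26 of the 50 at 2-fold and 2 at 1.5-fold, and with the block 42 and 24, with 0 and 3 false calls. The members and gene lists were chosen with earlier results of these data known. All members are named, with per-library values for the highest and lowest of each family. Values of further members (Tubb5, Tubb2b, Map2, Stmn4, Mapre1 and Mapre3) were chosen after they were seen. From each pathway list the 2 genes with the highest mean FPKM are named, and those at an unadjusted p under 0.05 with the block and 1 direction in all pairs. Promoter windows are from RefSeq (GRCr8), of which 28 of 34 members had an entry.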

Additional observations from a re-analysis of the deposited data

How the results depend on the processing

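Across 18 alternatives of the treatment fit, limma called 0 members in each, and the smallest adjusted p of a member was 0.632. The count of all genes called, 0, stayed 0 with the replicate block and became 2 with voom and the replicate block. Leaving out libraries moved it between 0 and 34, with 25 without pair A and 34 without pair B, and none of these genes was a member. Genes at an unadjusted p under 0.05 numbered 18, against 535 with the block, 194 without a filter, 11 with 5 FPKM, 5 with voom, 630 with voom and the block, and 416 with length removed and the block. Members with a positive sign, 9, became 19 under quantile normalization and 1 to 22 on leaving out libraries. Members at an unadjusted p under 0.05 became 4 with voom and the block, 1 without pair A and 1 without pair B. Over all tested genes these fits gave 630, 556 and 686. Signs turned under quantile normalization to 0.028 for Tuba1a, 0.0079 for Tuba1b, 0.025 for Tubb2b, 0.024 for Tubb3, 0.022 for Mapt, 0.0089 for Stmn2, 0.020 for Stmn3, 0.0098 for Stmn4, 0.040 for Dpysl2, 0.0099 for Mapre2 and 0.0019 for Dctn1. With the length trend removed, with or without the block, they turned to 0.028 for Tuba1a, 0.0057 for Tuba1b, 0.0015 for Tubb2b, -0.035 for Map1a, -0.055 for Dcx, -0.0032 for Dclk1, 0.0001 for Stmn2, 0.0029 for Stmn3, 0.014 for Stmn4, -0.0037 for Spast and -0.0074 for Clasp2. Leaving out 1 library makes the codes unequal between the groups. On leaving out 1 library or 1 pair, 25 members turned sign, with ranges over these fits: Tuba1a -0.26 to 0.18, Tuba1b -0.21 to 0.12, Tuba4a -0.30 to 0.026, Tuba8 -0.26 to 0.082, Tubb2a -0.13 to 0.13, Tubb2b -0.27 to 0.15, Tubb3 -0.38 to 0.20, Tubb4a -0.21 to 0.0006, Tubb4b -0.27 to 0.0011, Tubb5 -0.27 to 0.0039, Map1a -0.11 to 0.17, Map1b -0.051 to 0.24, Map2 -0.060 to 0.29, Map6 -0.16 to 0.10, Mapt -0.16 to 0.075, Dcx -0.12 to 0.16, Dclk1 -0.11 to 0.19, Stmn2 -0.16 to 0.059, Stmn3 -0.22 to 0.054, Stmn4 -0.31 to 0.19, Crmp1 -0.20 to 0.067, Dpysl2 -0.19 to 0.12, Dpysl3 -0.13 to 0.16, Dpysl5 -0.0089 to 0.29 and Mapre1 -0.13 to 0.14. So did Sirt2 -0.12 to 0.022, Kif2a -0.030 to 0.088, Spast -0.046 to 0.051, Dctn1 -0.13 to 0.010, Clasp2 -0.072 to 0.078, Apc -0.027 to 0.34, Map1lc3a -0.24 to 0.029, Pafah1b1 -0.045 to 0.11 and Mapk10 -0.10 to 0.21. These values had no adjusted p under the threshold in any of these fits, and the cause of the turns under quantile normalization was not tested. For Tuba8 a library holds only 30 to 61 reads.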
